A study of Rattus norvegicus with 10 samples.

Results

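Mammary tumours of rats were divided by how much messenger RNA for milk proteins they contained, and the other expressed genes were then compared between high and low milk protein tumours. The 10 tumours make up the whole series, and 6 of them had a high milk protein mean and 4 a low one. WD1, WD2, WD5, CD1, CD2 and CD4 formed the high class, and WD3, WD4, CD3 and CD5 the low class, where WD and CD stand for the diet of the dam and the number is the replicate in the labels. The milk protein mean is the average level of the milk protein genes of a tumour, and a mean above 1.5 made a tumour high and a mean below 1 made it low. A level is the log2 of the processed spot signal minus the 75th percentile of the array, so that 0 is the 75th percentile of that array. The members of each class were thus chosen by measured levels of the milk protein genes themselves, and the milk protein genes are described here without a test.

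The tumours came from female Sprague-Dawley rats, all given 1 intraperitoneal dose of N-methyl-N-nitrosourea (MNU, 50 mg/kg), an alkylating carcinogen that induces mammary tumours, at the age of 3 weeks. Dams of the WD tumours ate a Western-style diet, rich in fat and poor in fibre and in trace elements, between gestational days 12 and 20 and between postnatal days 1 and 21, and dams of the CD tumours ate control diet; every daughter ate control diet after weaning. RNA of tubular or papillary tumours from rats aged 110 days was hybridised to 1-colour Agilent arrays of the rat genome, 1 tumour to an array. Each class held both diets, with 3 WD and 3 CD tumours in the high class and 2 WD and 2 CD tumours in the low class. The labels do not say whether tumours came from separate dams or litters, so the p-values measure only the spread between these tumours. No normal or lactating gland was among the samples.

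Milk proteins are made by the alveolar cells of the luminal epithelium. In the normal gland prolactin acts through its receptor, the kinase Jak2 and the transcription factor Stat5, together with the transcription factor Elf5, to switch on casein and whey protein genes late in pregnancy. Secretory cells also make milk fat and lactose and enlarge the machinery that folds and exports proteins, and after weaning the gland regresses in a programme called involution. Mammary tumours can keep part of this secretory programme.

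The classes coincided with the slides on which the arrays lay. All 4 low tumours lay on slide 2, while the 6 high tumours lay on slide 1 (WD1, WD2 and CD2) and slide 3 (WD5, CD1 and CD4), and each slide was scanned on its own. Class and slide 2 cannot be told apart, so every difference below between high and low tumours is also a difference between slide 2 and the other 2 slides. Array quality values overlapped between the classes. The 75th percentile of the processed signal was 81.0 to 204 in the high class and 72.8 to 226 in the low class, and 18610 to 23419 against 17916 to 22335 spots were well above background. The mean of 6 spike-in probes, RNA added in known amounts before labelling, lay 4.63 to 6.28 above the 75th percentile (log2) in the high class and 4.74 to 5.65 in the low class. Single arrays widened these ranges. The 75th percentile was 72.8, 98.6 and 85.0 in WD3, WD4 and CD3, and of the high arrays only WD2 (81.0) lay that low. The upper low value was that of CD5. Apart from CD4, spike-in levels of the high arrays were at least 5.46, above every low array but CD5. Pairs of arrays correlated at 0.915 to 0.977 over the tested genes.

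Csn3, Lalba, Csn1s1 and Mfge8 were high in every high tumour, and Csn3 and Mfge8 were well above background in every low tumour too. Other milk protein genes, among them Csn2, Wap and Btn1a1, were below the 75th percentile of the array in all 6 high tumours. The list used held 13 milk protein genes, of which 11 had a named probe. Of these, 7 were well above background on at least 5 arrays and gave the milk protein mean: Csn3, Lalba, Mfge8, Csn1s1, Xdh, Glycam1 and Csn2. That mean was 2.79 in WD1, 3.07 in WD2, 2.43 in WD5, 3.15 in CD1, 3.28 in CD2 and 2.72 in CD4, and 0.39 in WD3, -1.25 in WD4, -0.29 in CD3 and 0.69 in CD5. The tumours nearest the thresholds were WD5, the lowest of the high class, and CD5, the highest of the low class. The low class spread more widely than the high class.

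Alpha-lactalbumin (Lalba), the subunit that turns a galactosyltransferase into lactose synthase, had levels from 4.25 to 6.48 in the high tumours, with a median of 5.57. In the low tumours Lalba was 2.66 in WD3, -4.15 in WD4, -1.50 in CD3 and 3.40 in CD5. WD3 and CD5 thus stood well above their array's 75th percentile, and in WD4 the probe was not well above background. The kappa casein gene Csn3, whose protein holds casein micelles in solution, was between 5.53 and 6.67 (median 6.09) in the high tumours. Csn3 was 3.78 in WD3, -1.11 in WD4, 2.77 in CD3 and 3.21 in CD5, and it was well above background in all 4. The alpha casein gene Csn1s1 was 3.69 to 6.26 (median 5.03) in the high class, against -2.87 in WD3, -0.22 in WD4, 0.80 in CD3 and 2.33 in CD5. Low tumours did not share 1 order: WD3 had the highest Csn3 and the lowest Csn1s1 of the 4. The working name of the low class, non-secreting, goes against these levels, and secretion was not measured, so the classes are called high and low milk protein tumours.

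Other milk genes were less uniform. Mfge8, a protein of the milk fat globule, was 4.48 to 5.94 (median 5.29) in the high tumours and 3.32, 3.19, 3.74 and 4.04 in WD3, WD4, CD3 and CD5. Xdh, the xanthine dehydrogenase that also helps to bud fat globules, was -0.09 to 1.15 (median 0.35) in the high class and -1.13, -0.94, -1.04 and -1.54 in the same 4 low tumours. Neither gene overlapped between the classes. Glycam1, a small milk glycoprotein, ran from -3.63 to 2.40 in the high class (median 0.62) and was -0.74 in WD3, -2.82 in WD4, -4.24 in CD3 and -4.56 in CD5, so that WD1 and WD5 lay among the low tumours. The beta casein gene Csn2 divided the high class by slide: it was -0.60, -0.33 and -0.38 in WD1, WD2 and CD2 of slide 1 and -2.44, -3.19 and -2.74 in WD5, CD1 and CD4 of slide 3, while the low tumours lay between -2.70 and -2.07. Wap, the whey acidic protein, and Btn1a1, the butyrophilin of fat globule membranes, were well above background on 4 high arrays each and on 0 low arrays. The probes of Csn1s2a and Csn1s2b were well above background on no array.

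**Figure D1:**
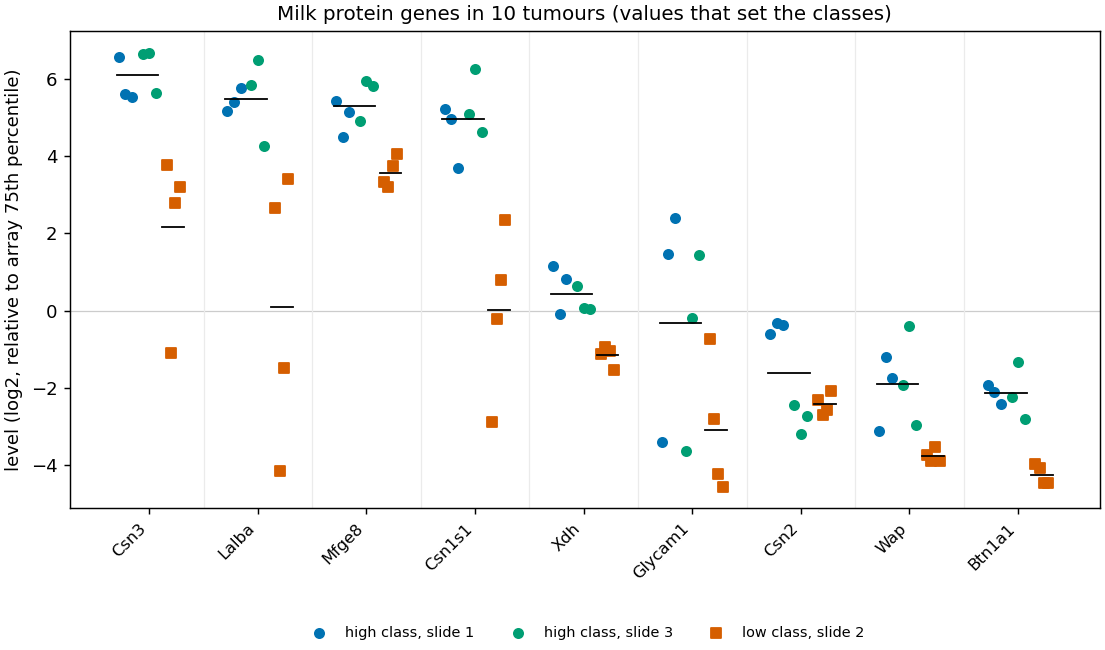
Levels (vertical axis, log2 relative to the 75th percentile of the array) of the 9 milk protein genes that were well above background on at least 4 arrays, 1 point per tumour, circles for the high class (blue slide 1, green slide 3) and orange squares for the low class (slide 2), black bars for class means. Glycam1 and Csn2 overlap between classes and the other genes do not. Of the genes without overlap, Wap and Btn1a1 were well above background on 0 low arrays. Within the high class Csn2 is higher on slide 1 than on slide 3.

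Sequences just before the start sites are shown for the milk protein genes that mark the classes. The letters searched were TTCNNNGAA, the motif that Stat5 binds, which reads the same on both strands, in the 250 bases before each start in RefSeq (assembly GRCr8). It occurs in 7.67% of 33469 rat promoters of that length. Of the 13 milk protein genes 5 held it, namely Csn1s1 and Csn1s2b 100 bases before the start, Csn1s2a 102, Csn2 97 and Glycam1 175. The last 150 bases before the start are shown for the genes that mark the classes, 5′ to 3′ on the strand of the gene, with the motif in capitals; they lie at chr14:20638850-20638999, minus strand (Csn1s1), chr7:131507073-131507222, minus strand (Lalba) and chr14:20439831-20439980, minus strand (Csn3).
Csn1s1: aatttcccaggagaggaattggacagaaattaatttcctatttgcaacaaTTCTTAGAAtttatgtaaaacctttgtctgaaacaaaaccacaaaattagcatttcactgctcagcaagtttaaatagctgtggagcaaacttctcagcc
Lalba: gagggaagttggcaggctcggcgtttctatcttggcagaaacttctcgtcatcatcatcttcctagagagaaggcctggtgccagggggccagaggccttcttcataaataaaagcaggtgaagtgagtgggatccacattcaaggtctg
Csn3: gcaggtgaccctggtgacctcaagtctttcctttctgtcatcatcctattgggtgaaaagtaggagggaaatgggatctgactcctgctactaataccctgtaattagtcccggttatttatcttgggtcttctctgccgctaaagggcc
Lalba and Csn3 do not have the letters in these windows. All 3 genes had higher levels in each high tumour than in any low one, but their levels helped to set the classes. Csn2, which has the motif and also entered the mean, did not separate the classes. A relation between motif and class was not tested. A match is a description of the sequence, not evidence of a bound factor.

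Outside the milk protein list, few genes passed the test and nearly all of those were higher in the high milk protein tumours. Among 17433 genes tested with limma, with maternal diet as a covariate, 60 (0.344%) had an adjusted p under 0.05: 57 were higher (0.327%) and 3 lower (0.0172%) in the high class. Of the 60, 33 had a symbol, and the genes of lowest adjusted p (0.000598) were among the 27 without one. The classes did not overlap for 58 of the 60 genes, and for 317 higher (1.82%) and 249 lower (1.43%) of all tested genes. At an unadjusted p under 0.05 there were 1551 higher genes (8.9%) and 1636 lower genes (9.38%), so the higher genes outnumbered the lower ones among the called genes and not at this looser threshold. The filter, at least 4 arrays well above background, also favoured higher calls: 167 tested genes were well above background on no low array and 0 on no high array. Of the called genes 19 were among those 167, all of them higher, and the genes measured in both classes gave 38 higher and 3 lower calls. The median difference of all genes was -0.06. As these are whole tumours, a lower share of one cell type and less RNA per cell cannot be told apart. The number called depended on the tumours in the fit: it was 14 to 33 when any of WD1, WD3, WD4, WD5, CD1, CD2, CD3 or CD4 was left out, 70 without WD2 and 180 without CD5. It was 5 with the authors' deposited series matrix values and 5 with normexp background correction, in which 4 of the 60 were called each time, and 26 with quantile normalisation, all of them among the 60.

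The leading called genes with a symbol encode secreted and membrane proteins, enzymes and signalling proteins, and no list of secreted proteins was tested. Ccl28, a mucosal chemokine that draws antibody-secreting cells into the lactating gland, had levels from -1.41 to -0.54 (median -1.06) in the high class and -3.72, -3.82, -4.48 and -4.93 in WD3, WD4, CD3 and CD5. No low array had Ccl28 well above background, and the gene was at least 8.13-fold higher in the high class, taking the background limit of the low arrays in the processed signals (limma difference 3.23 ± 0.29 SE on the log2 scale, adjusted p = 0.0023; class means -1.01 and -4.24). Agt, angiotensinogen, the precursor of angiotensin, was -0.64 to 1.42 (median 0.47) against -3.68, -3.81, -3.79 and -2.37, a 14.9-fold difference (3.89 ± 0.38, adjusted p = 0.0038), with 1 of the 4 low arrays well above background. All 6 high tumours lay above all 4 low tumours for both genes. Cel, the bile salt-stimulated lipase that is secreted into milk, was -2.64 to -1.38 (median -1.89) in the high class and -4.09, -4.17, -4.43 and -3.78 in the low class, where it was on no array well above background (at least 3.44-fold, adjusted p = 0.0082, means -1.95 and -4.12). Muc15, a mucin of the milk fat globule membrane, was -0.10 to 1.51 (median 0.41) against -2.17, -2.78, -1.94 and -1.63 (6.79-fold, 2.76 ± 0.34, adjusted p = 0.011; 2 low arrays well above background). Csap1, common salivary protein 1, had the widest range, with 2.96 to 5.22 (median 5.01) in the high tumours and 0.72 in WD3, -1.89 in WD4, 1.59 in CD3 and 1.76 in CD5 (15.2-fold, 3.93 ± 0.54, adjusted p = 0.022; 3 low arrays well above background). None of these genes overlapped between the classes.

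Lbp, the plasma protein that binds bacterial lipopolysaccharide, was 1.46 to 3.61 (median 2.77) in the high class and 0.31, 0.62, 0.05 and -0.14 in WD3, WD4, CD3 and CD5. Its difference was 5.50-fold (2.46 ± 0.35, limma adjusted p = 0.023), and WD2, the lowest high tumour, still lay above every low one. Qsox1, a secreted and Golgi enzyme that forms disulfide bonds, was high in every tumour: 6.53 to 7.13 (median 6.91) against 5.96, 5.77, 5.75 and 5.77. The difference was 2.10-fold (1.07 ± 0.15, adjusted p = 0.024), with little spread in either class. The other leading genes were Akr1c19, an aldo-keto reductase (at least 3.22-fold, adjusted p = 0.0038, means -2.02 and -4.04), Trim42 (at least 2.97-fold, adjusted p = 0.020, means -1.42 and -3.00) and Ngef, a guanine nucleotide exchange factor (4.83-fold, adjusted p = 0.022; 1 low array well above background). Akr1c19 and Trim42 were on no low array well above background, and neither they nor Ngef overlapped. The bound of Trim42 equals its plain fold of 2.97, so the background limit did not lower it.

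Ccl28, Akr1c19, Agt and Cel had an adjusted p under 0.05 without any 1 of the 10 tumours (highest 0.016 for Ccl28 and 0.044 for Cel). Muc15 lost its call without WD3 or CD3, Trim42 without WD3 or CD4, Thrsp without WD3, WD4 or CD3, and Csap1 without CD2, CD3 or CD4. Olah lost it without WD5, CD1, CD3 or CD4 and Ngef without WD3, WD4, WD5, CD2, CD3 or CD4. Lbp kept it without WD1, WD2 or CD5 only and Qsox1 without WD2 or CD5 only. The 21 called genes with a symbol that were not among the 12 of lowest p were past the threshold in 0 to 3 of the 10 fits. In those fits the sign of the difference did not change for any of the 60 genes.

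The folds and bounds above hold for the processed signals, and most were far smaller in other processing. With the authors' deposited series matrix values the difference was 0.81 for Ccl28, a 1.75-fold difference (limma adjusted p = 0.055), 1.41 for Agt, or 2.66-fold (adjusted p = 0.055), 0.37 for Akr1c19, or 1.29-fold (adjusted p = 0.15), and 0.33 for Cel, or 1.26-fold (adjusted p = 0.17). Normexp with an offset of 50 gave 0.81, 1.45, 0.36 and 0.33 for the same genes (adjusted p = 0.051, 0.051, 0.16 and 0.17). So the 4 genes whose calls did not depend on any 1 tumour lost them in both of these settings. Csap1, Olah and Qsox1 were called in both, with differences of 3.06 to 3.98, 1.99 to 2.59 and 0.98 to 1.12 over 3 other scalings. The other 9 of the 12 leading genes, and 30 of the 33 called genes with a symbol, were called in neither. Quantile normalisation of the processed signals kept all 12 leading genes past the threshold.

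**Figure D2:**
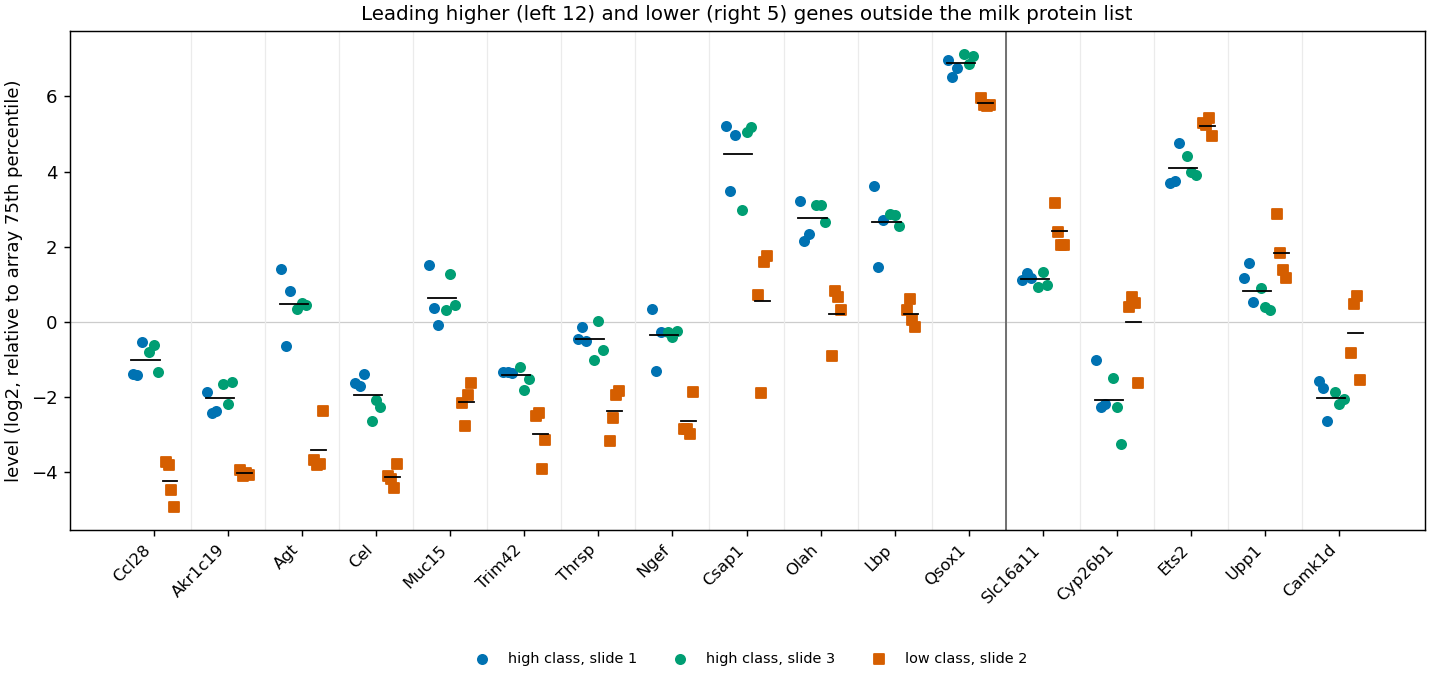
Levels (vertical axis, log2 relative to the 75th percentile of the array) of the 12 leading higher genes and, right of the grey line, 5 lower genes, 1 point per tumour, circles for the high class (blue slide 1, green slide 3) and orange squares for the low class (slide 2), black bars for class means. The 12 higher genes and Slc16a11 do not overlap between classes. For these genes the high tumours of slides 1 and 3 overlap, except for Cel. Cel is higher in every slide 1 tumour than in any slide 3 tumour (difference 0.83, limma adjusted p = 0.18). Of the 5 lower genes only Slc16a11 passed the test.

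The same letters were searched upstream of the called genes. Of the 32 higher called genes with a symbol, 23 matched a RefSeq promoter, and 0 of their 24 promoters had TTCNNNGAA in the 250 bases before the start, against 7.67% of all promoters, a share at which 1.84 of 24 would hold it. The last 150 bases are shown for 3 genes whose products enter milk or build its fat, at chr2:53333921-53334070, plus strand (Ccl28), chr3:32289020-32289169, minus strand (Cel) and chr17:79786682-79786831, plus strand (Olah) of GRCr8, in lower case since no motif was found.
Ccl28: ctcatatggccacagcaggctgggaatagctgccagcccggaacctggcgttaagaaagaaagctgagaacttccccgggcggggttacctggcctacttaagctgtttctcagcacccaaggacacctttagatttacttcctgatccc
Cel: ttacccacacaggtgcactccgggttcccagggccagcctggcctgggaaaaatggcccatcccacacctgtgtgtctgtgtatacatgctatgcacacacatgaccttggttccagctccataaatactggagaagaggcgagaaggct
Olah: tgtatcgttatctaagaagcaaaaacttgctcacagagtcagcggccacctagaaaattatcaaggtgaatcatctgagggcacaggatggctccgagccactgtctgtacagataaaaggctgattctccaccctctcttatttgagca
No match says only that these letters are absent from these windows.

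Among genes of milk fat synthesis Olah and Thrsp rose. Of 31 listed genes 24 were tested, 2 were called higher and 0 lower, and the median difference was -0.01, near the -0.06 of all genes. The share called higher among all tested genes was 0.327%. Olah, the thioesterase that ends fatty acid synthesis early and so gives the medium-chain fatty acids of milk, was 2.16 to 3.22 (median 2.89) in the high class and -0.92, 0.83, 0.66 and 0.31 in WD3, WD4, CD3 and CD5 (5.85-fold, 2.55 ± 0.36, limma adjusted p = 0.023). Thrsp, a lipogenic protein that acts with fatty acid synthase, was -1.004 to 0.03 (median -0.49) against -3.16, -2.55, -1.95 and -1.84 (3.75-fold, 1.91 ± 0.26, adjusted p = 0.021; 2 low arrays well above background). Both genes separated the classes in every tumour. Fads1, the delta-5 desaturase, was 0.26 to 1.63 in the high class and -1.73 to -0.33 in the low class without passing the test (difference 1.64, adjusted p = 0.084). The fatty acid synthase gene Fasn differed by 0.34 (adjusted p = 0.27), with 4.73 to 5.73 against 4.72 to 5.13. The mean level of the list was 0.69 to 0.96 in the high tumours and 0.50 to 0.60 in the low tumours. This list and the luminal markers (CD5 without Cldn3) were the only 2 of 29 whose mean levels did not overlap between classes. In the milk fat list 12 members were higher and 12 lower in the high class, so its mean does not describe most members. Its members without overlap were 3 higher and 1 lower, against 1.82% and 1.43% of all tested genes.

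Of the prolactin pathway, the downstream factor Elf5 rose and the upstream members did not pass the test. Elf5, the ETS factor that drives alveolar differentiation, was -1.89 to -0.30 (median -1.25) in the high class and -2.91, -4.09, -3.53 and -3.09 in WD3, WD4, CD3 and CD5, where no array had it well above background. It was at least 4.43-fold higher (2.23 ± 0.35, limma adjusted p = 0.037, means -1.18 and -3.41), but the difference was 0.52 with the series matrix, or 1.43-fold (adjusted p = 0.17), 0.56 with normexp (adjusted p = 0.16) and 2.36 with quantile normalisation (adjusted p = 0.060), and so it lost its call in all 3. In the processed signals it was called without CD5 but not without any 1 of the other 9 tumours. The receptor gene Prlr was 0.79 to 3.01 (median 2.45) in the high class and 2.82, 2.55, 2.93 and 2.66 in the low class, so the low tumours fell inside the range of the high ones (difference -0.55, adjusted p = 0.37). Stat5a had nearly equal class means of 5.64 and 5.71 (adjusted p = 0.86), and Jak2 differed by -0.24 (adjusted p = 0.49). Stat5b, the close relative of Stat5a, was -0.65 to 0.61 in the high class and -1.43 to 0.12 in the low class (difference 0.85, adjusted p = 0.11). Of 19 tested members 1 was called higher and 0 lower, against 0.327% of all tested genes called higher. The list median was 0.39, and under 3 other scalings that median was 0.07 to 0.35.

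Called genes also belonged to a list of involution genes. Of its 24 tested members 2 were called higher, Lbp and Tgfb3, and 0 lower, with a median of -0.01. Among all tested genes 0.327% were called higher. Tgfb3, a transforming growth factor induced by milk stasis, was 0.64 to 2.03 (median 1.69) in the high class and 0.03, -0.32, -0.25 and 0.49 in WD3, WD4, CD3 and CD5 (3.05-fold, 1.61 ± 0.26, limma adjusted p = 0.040). Igfbp5, which binds insulin-like growth factors, differed by 1.17 (adjusted p = 0.10), and Stat3, the switch of involution, by -0.01 (adjusted p = 0.99). Members of the list thus differed among themselves.

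Genes for other steps of milk making did not pass the test; with 0.344% of all genes called, 0 calls is near the background for lists of this size, here and below. Lactose synthesis and sugar supply had 0 of 13 called and a median of 0.15. Galk1, which feeds galactose into metabolism, was its member of smallest p (0.58, limma adjusted p = 0.15), and the galactosyltransferase B4galt1, partner of Lalba in lactose synthase, differed by 0.01 (adjusted p = 0.99). Lactation transporters had 0 of 16 called and a median of 0.03, with the amino acid transporter subunit Slc3a2 at 0.51 (adjusted p = 0.15). Genes for translocation into the endoplasmic reticulum, folding and export had 0 of 44 called and a median of -0.02, with the chaperone Hspa5 at 5.21 to 6.30 in the high class and 5.25 to 5.84 in the low class (adjusted p = 0.98). Srpra, a subunit of the receptor that docks ribosomes, differed by -0.59 (adjusted p = 0.21), and 2 of its 4 probes differed the other way. Regulators of the unfolded protein response had 0 of 14 called and a median of -0.04, with the stress protein gene Sesn2 at 0.85 (adjusted p = 0.15). Cholesterol synthesis had 0 of 19 called and a median of -0.16, with the isoprenoid synthase gene Fdps at -0.29 (adjusted p = 0.35).

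Hormone receptors and growth lists also had 0 called members. The estrogen receptor gene Esr1 was -4.39 to -1.31 (median -2.53) in the high class and -2.60, -2.92, -2.03 and -2.57 in the low class, close to background (limma adjusted p = 0.85). The progesterone receptor gene Pgr was 0.06 to 1.42 (median 1.08) against -0.56, 0.31, 0.79 and 1.54 in WD3, WD4, CD3 and CD5 (adjusted p = 0.40). Both receptors overlapped between the classes, and the median difference of the 14 receptor and target genes tested was -0.04, with the chemokine gene Cxcl12 at 0.40 (adjusted p = 0.38). The growth factor receptor gene Erbb2 was 0.01 to 1.98 (median 1.00) against -0.32, 0.00, 0.35 and 0.58 (difference 0.82, adjusted p = 0.13). Of 25 cell cycle genes 24 had a higher mean in the high class, against 7543 of all 17433 tested genes. Of the 25, 0 were called, and their median was 0.35. Their mean level overlapped widely, with -0.75 to 1.00 in the high class and 0.37, -1.42, -0.79 and 1.01 in WD3, WD4, CD3 and CD5. The list median was -0.002 without CD3 and 0.76 without CD5. Mcm7, a helicase subunit and the member of smallest p, differed by 0.35 (adjusted p = 0.41), and the replication clamp gene Pcna by -0.03 (adjusted p = 0.96). Energy and translation lists had 0 called members too: 0 of 29 genes of oxidative phosphorylation (median -0.07), 0 of 28 ribosomal protein genes (-0.01) and 0 of 22 genes of glycolysis and hypoxia (0.11). Their members of smallest p were Ndufa4 of the respiratory chain (-0.45, adjusted p = 0.17), Rplp0 of the ribosome (0.67, adjusted p = 0.15) and the aldolase gene Aldoc (1.17, adjusted p = 0.090).

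The genes lower in the high class were few. Slc16a11, a monocarboxylate carrier, was the 1 lower called gene with a symbol: 0.92 to 1.34 (median 1.13) in the high class and 3.17, 2.38, 2.05 and 2.04 in WD3, WD4, CD3 and CD5 (2.42-fold lower, -1.27 ± 0.21, limma adjusted p = 0.040). The high tumours were close together, and none reached the low ones; the call was kept without CD5 but not without any 1 of the other 9 tumours. The next lower genes did not pass. Cyp26b1, which breaks down retinoic acid, had means of -2.08 and -0.01 (adjusted p = 0.070), with CD5 among the high tumours at -1.62. The transcription factor gene Ets2 was 3.70 to 4.77 (median 3.95) against 5.28, 5.24, 5.43 and 4.95 without overlap (adjusted p = 0.072). Upp1, a uridine phosphorylase, and the kinase gene Camk1d had differences of -1.01 and -1.71 (adjusted p = 0.090 and 0.10).

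**Figure D3:**
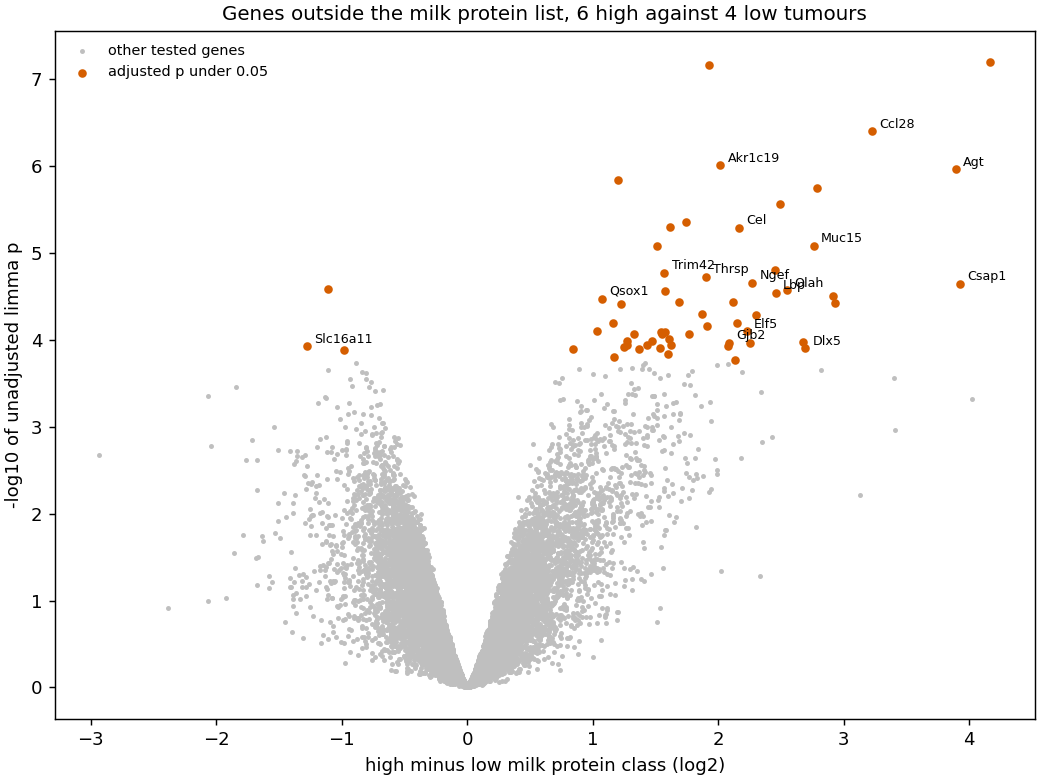
Difference between high and low milk protein tumours (horizontal axis, log2) against -log10 of the unadjusted limma p (vertical axis) for the 17433 genes tested, with the 60 genes of adjusted p under 0.05 in orange. Of these 57 lie on the right and 3 on the left, and called points without a name are genes with no symbol or genes not labelled here.

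Beyond the genes named by rule, 18 called genes with a symbol, picked out here after their values were seen, were all higher, by 1.17 to 2.93 on the log2 scale (limma adjusted p = 0.024 to 0.049). Several encode channels, junctions and transporters of epithelia: Gjb2, the gap junction protein connexin 26 (4.25-fold), Ano1, a calcium-activated chloride channel (3.75-fold) and Slc5a3, a myo-inositol transporter (2.91-fold). Ano1 overlapped between the classes, with the low tumour CD5 at -0.62 above the high tumour WD2 at -0.95. Its low values ran down to -3.51 in WD3, and 2 low arrays were well above background. Others act in development and hormone response: Wnt5b, a Wnt ligand (4.78-fold), the homeobox gene Dlx5 (6.48-fold) and Nr3c2, the mineralocorticoid receptor. Nr3c2 was at least 2.31-fold higher and was well above background on no low array. Plce1, a phospholipase C, was 4.44-fold higher. The rest were Rasgef1c, Prdm9, Or8w1b, Plscr2, Zfp575, Tacr1, Etv3, Eepd1, Neu2, Prr5 and Tnnt2. Of the 60 called genes, 19 were well above background on no low array, so their folds rest on dim low values.

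Among markers of cell types Elf5 alone passed the test, and the part that cell makeup has in the differences above was not tested. The luminal epithelium list had 1 of 15 called, Elf5, against 0.344% of all tested genes, and a median of 0.16. Its mean level was 2.89 to 3.26 in the high tumours and 2.78, 2.54, 2.70 and 2.80 in WD3, WD4, CD3 and CD5. Of its keratins, Krt8 differed by 0.80 and Krt19 by 0.84 (limma adjusted p = 0.17 and 0.19), while Krt18 differed by -0.35 (adjusted p = 0.28). Cldn3, a tight junction protein, differed by 0.95 (adjusted p = 0.094), without CD5, whose spot was an outlier. The luminal mean level of CD5, the highest of the low class, therefore leaves Cldn3 out. Basal and myoepithelial markers had 0 of 14 called, a median of 0.24 and overlapping levels of 1.76 to 2.61 against 1.60 to 2.41; the laminin gene Lamb3 differed by 0.47 (adjusted p = 0.27) and the basal keratin gene Krt14 by -0.20 (adjusted p = 0.72). Fibroblast and matrix genes had 0 of 19 called, with 15 lower in the high class, a median of -0.65 and levels of 0.49 to 2.15 against 1.48 to 2.34. Among all 17433 tested genes 9890 were lower in the high class. The decorin gene Dcn differed by -1.41 (adjusted p = 0.28), and the growth factor receptor gene Pdgfra by -0.95 (adjusted p = 0.20).

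Leukocyte lists showed the same overlap. Macrophage and monocyte markers had 0 of 16 called, with 14 lower, a median of -0.72 and levels of 1.34 to 2.89 in the high class against 2.94, 3.46, 2.56 and 2.09 in WD3, WD4, CD3 and CD5. The member Cd14, which is also an involution gene and the partner of Lbp in sensing lipopolysaccharide, differed the other way, by 1.06 (limma adjusted p = 0.15). Mast cell markers had 0 of 9 called, 8 lower, a median of -0.97 and levels of -1.44 to 0.63 against -0.34 to 1.46; Ms4a2, a chain of the IgE receptor, did not overlap (difference -1.25, adjusted p = 0.14), and Kit, shared with the luminal list, differed by 0.98 (adjusted p = 0.11). For comparison with these counts, 9890 of all 17433 tested genes were lower in the high class. T and NK cell markers had 0 of 13 called and a median of -0.51. Inflammatory cytokines and chemokines had 0 of 9 called and a median of -0.76, with the monocyte attractant Ccl2 at 0.13 to 2.06 (median 1.01) against 3.52, 2.75, 1.33 and 1.54 (adjusted p = 0.15). Interferon response genes had 0 of 19 called and a median of -0.14. Only 2 of 14 B and plasma cell markers and 4 of 12 neutrophil markers were measured, with 0 called; the plasma cell factor gene Prdm1 differed by -0.91 (adjusted p = 0.36) and S100a9, a calcium-binding protein of neutrophils, by -1.67 (adjusted p = 0.30).

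Tissues next to the gland were looked at as well. Adipocyte markers had 0 of 7 called, a median of 0.81 and levels of -2.06 to -0.36 in the high class against -2.36 to -1.03 in the low class; the adiponectin gene Adipoq was well above background on 4 high arrays and 0 low arrays, and the lipase gene Pnpla2 differed by 0.81 (adjusted p = 0.27). Of 15 salivary and lacrimal gland markers 1 was measured, Aqp5, a water channel, at 2.34 to 5.28 (median 3.45) in the high class and 4.97, 0.35, 0.42 and 5.22 in WD3, WD4, CD3 and CD5 (limma adjusted p = 0.66). Endothelial markers had 0 of 7 called (median -0.20), Schwann cell and nerve markers 0 of 7 (0.55), skeletal muscle markers 0 of 6 (0.03), and skin and hair follicle markers 0 of 2 (0.04). Members of smallest p were Kdr, a receptor of vascular growth factor (-0.53, adjusted p = 0.15), Sox10, a neural crest factor (0.72, adjusted p = 0.11), the myoglobin gene Mb (0.97, adjusted p = 0.11) and Trps1 (-0.08, adjusted p = 0.77).

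**Figure D4:**
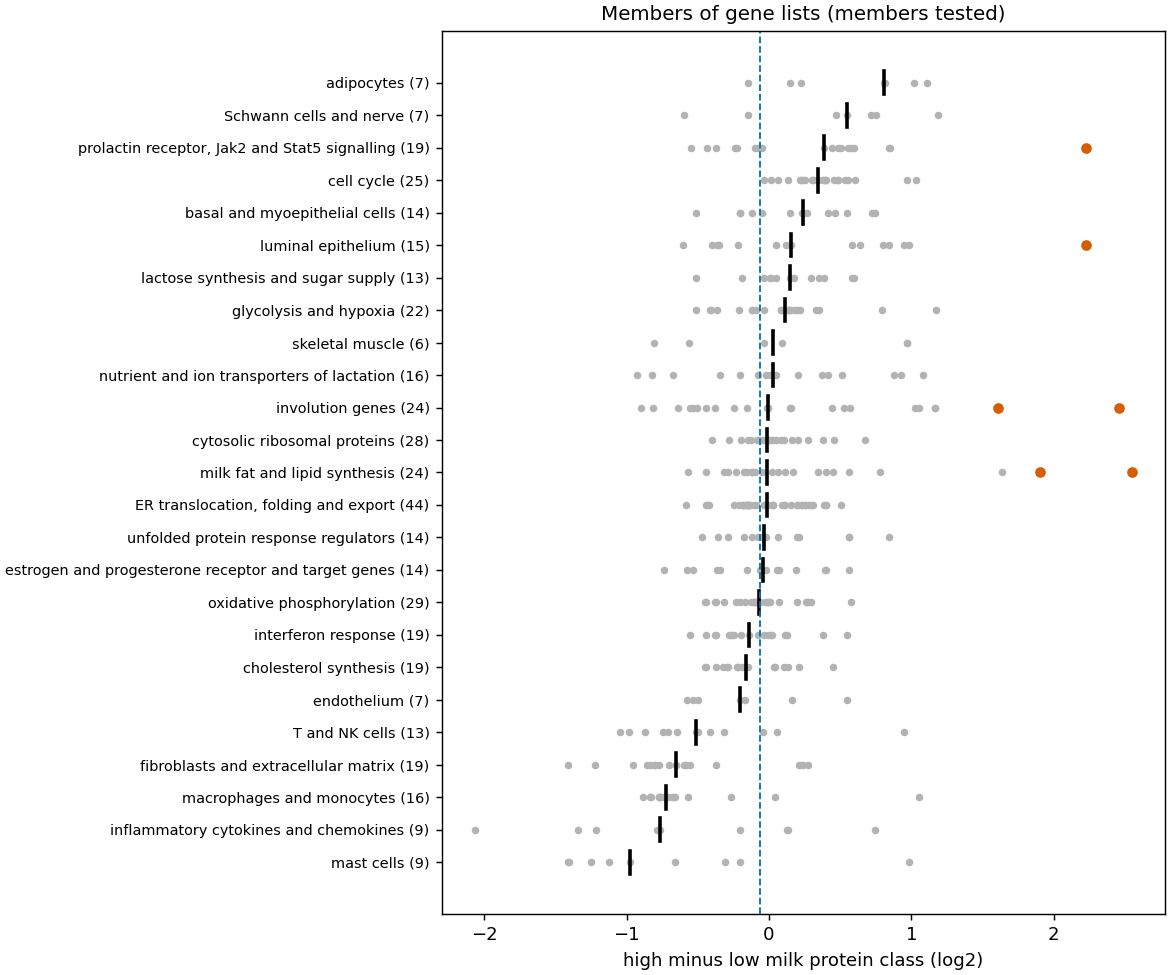
Differences between high and low milk protein tumours (horizontal axis, log2) for the tested members of each list with at least 5 of them (number in brackets), grey points for members that did not pass the test, orange for called members, a black bar for the list median and a blue dashed line for the median of all tested genes (-0.06). The only called members are Elf5 (in 2 lists), Lbp, Tgfb3, Thrsp and Olah.

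**Figure D5:**
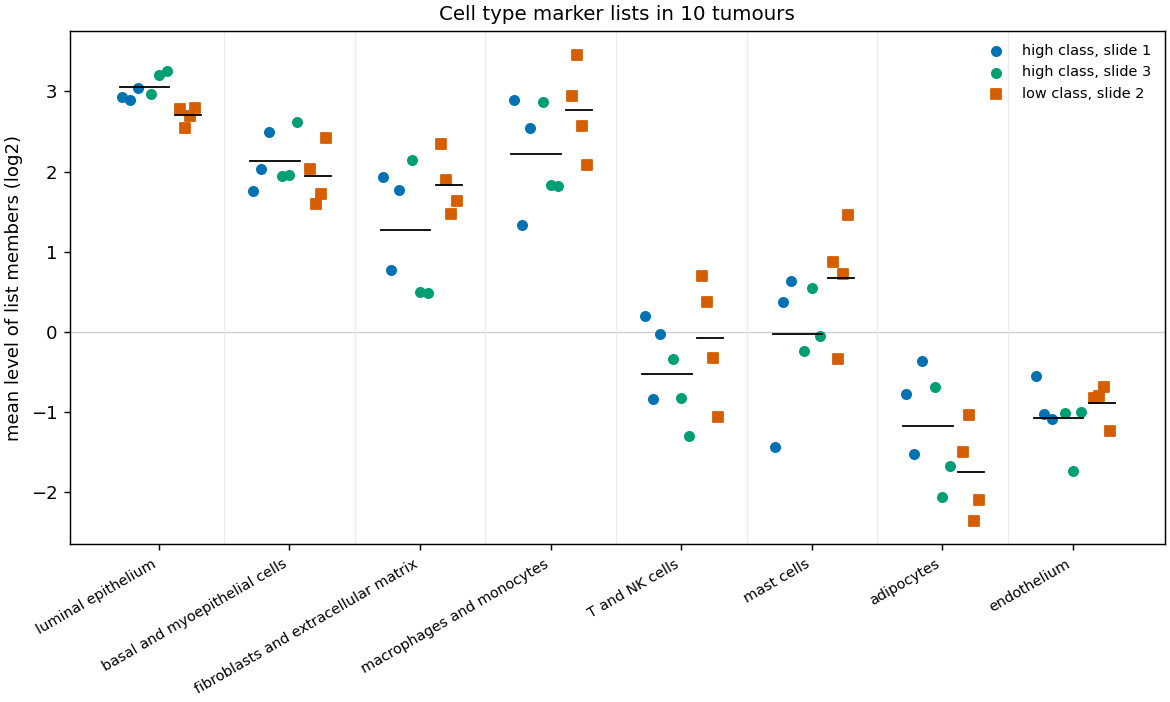
Mean level of the tested members of 8 cell type lists (vertical axis, log2 relative to the 75th percentile of the array), 1 point per tumour, circles for the high class (blue slide 1, green slide 3) and orange squares for the low class (slide 2), black bars for class means. The luminal list alone has no overlap (2.89 to 3.26 against 2.54 to 2.80). The CD5 value of that list, the highest of the low class, leaves out Cldn3, whose spot was an outlier.

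Dependence of the class difference on maternal diet was asked of every gene. In limma 0 of 17433 genes had a class difference that depended on diet (lowest adjusted p 0.64; 507 at an unadjusted p under 0.05), and 0 differed with diet itself with class as a covariate (lowest adjusted p 0.081; 3272 at an unadjusted p under 0.05). Agt differed by 4.12 between high and low WD tumours and by 3.67 between high and low CD tumours, and Ccl28 by 2.58 and 3.88. With 3 high and 2 low tumours per diet, a moderate dependence could have been missed.

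Slides were compared where the classes allowed it. Within the high class, slide 1 against slide 3, 121 genes were higher on slide 1 (0.694%) and 2 lower (0.0115%) in limma, and 0 of these 123 were among the 60 called between classes. The call itself largely fixes that overlap, and likewise that all 57 higher called genes lay above the low mean on both slides, for example Ccl28 by 3.13 on slide 1 and 3.33 on slide 3, Agt by 3.94 and 3.84, and Elf5 by 2.34 and 2.12. Fitted with the high tumours of slide 1 only, 333 genes were called, and with those of slide 3 only, 18. These fits leave the low class on slide 2. Following the milk protein mean within slides, with slide as a term, 37 of the 57 higher genes and 1 of the 3 lower genes kept their sign, and 0 of the 60 were called. In that fit 14 genes were called, 7 higher (0.0402%) and 7 lower (0.0402%). Scaled to the class difference of 3.02 in the milk protein mean, Elf5 was 2.27, Csap1 3.24, Muc15 1.30, Agt 0.85 and Cel 0.58, while Ccl28 was -0.28, Akr1c19 -0.13, Thrsp -0.16, Lbp -1.01 and Olah -2.37. Those values rest mainly on slide 2, since the milk protein mean spanned -1.25 to 0.69 there and 2.43 to 3.28 on the other slides together.

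Likeness to the milk protein mean restates the class difference, since that mean set the classes. The 6 with a symbol that were most alike by Pearson correlation over the 10 tumours were Flad1 (0.957), Cel (0.949), Tfap2c (0.948), Agt (0.934), Csap1 (0.930) and Muc15 (0.927); these correlations describe tumours that fall into 2 classes on different slides. Flad1, which makes flavin adenine dinucleotide, was -0.49 to -0.29 (median -0.45) in the high tumours and -1.10, -1.83, -1.06 and -1.002 in WD3, WD4, CD3 and CD5 (difference 0.81, limma adjusted p = 0.090). Tfap2c, a transcription factor of the mammary epithelium, was 0.85 to 0.99 (median 0.90) against 0.42, 0.47, 0.45 and 0.67 (difference 0.41, adjusted p = 0.15). Both separated the classes by steps small beside those of Agt or Csap1, with narrow ranges in the high class.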

How the data were processed

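The authors read each 1-colour array with Agilent Feature Extraction, version 11.5.1.1 per the file headers and 15.5 per the submitters' processing notes. The deposited intensity values are processed signals, background-subtracted per the file headers. The deposited series matrix holds log2 values, used as an alternative. Each array held 45018 spots, 1639 of them controls, and 43379 measuring spots of 41012 probes. Log2 signals were set relative to the 75th percentile of an array's measuring spots; outlier spots were dropped and replicate spots averaged. The test took probes marked well above background on 4 or more arrays, the size of the smaller class, and the brightest kept probe stood for its gene, which chose among several probes for 2545 genes. RefSeq (GRCr8) named 17502 probes and gave the promoters; 23510 probes had no name from it, and array positions, on another build, are not given. Milk protein genes, which set the classes, were left out of the test.

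The class comparison used limma 3.58.1 under R 4.3.3 (class and diet as terms, moderated variances, Benjamini-Hochberg adjustment over 17433 genes, adjusted p under 0.05). The classes are balanced for diet, so the fitted difference is that of the class means; 17 tested genes lack a value on 1 or more arrays. Where a gene was on no low array well above background, its fold is a bound: the high mean against, per array, the higher of the probe's own signal and the lowest signal well above background. The arrays were loaded through data.table, version 1.17.8. Python 3.11.15 drew the plots (matplotlib 3.10.9) and searched the promoters (pandas 2.3.3). The procedure was checked on simulated data. These held no slide effect and no background limit, so the check says nothing about either.

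The classes, the members and the 29 lists were chosen with earlier results of these data known. Named genes were the 12 of smallest p in each direction past the threshold with a symbol and a difference of at least 1 (log2), filled to 6 by smallest p; up to 3 called members of each list, or the 1 of smallest p; every measured milk protein gene; and 15 genes fixed by name, of which Xbp1 and Plin2 have no named probe and Slc34a2 was not kept. Some genes that the rule names are not reported here. In all 26 alternative settings were run; the 3 on slides were added after seeing the data.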

Additional observations from a re-analysis of the deposited data

Results flagged for a closer look

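In 8 cases among the named genes, 1 tumour stood apart from the others of its class, by a gap to the nearest that was large for the range of the class (Dixon's criterion). Chance alone marks about 1 in 20 groups, and 128 groups were looked at. CD5 was the outlying low tumour for Agt (-2.37, others -3.81 to -3.68), Ngef (-1.87, others -2.98 to -2.84), Cyp26b1 (-1.62, others 0.39 to 0.66) and Cd14 (1.86, others 2.74 to 2.81). For Agt and Ngef it was the low tumour nearest to the high class, and for Cyp26b1 it lay within the high class. WD3 stood apart in Qsox1 (5.96, others 5.75 to 5.77) and WD4 in Flad1 (-1.83, others -1.10 to -1.002). In the high class WD2 stood apart in Tgfb3 (0.64, others 1.62 to 2.03) and Flad1 (-0.29, others -0.49 to -0.43).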

How the results depend on the processing

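All 60 called genes, where tested, kept their sign in 24 of 26 settings; the exceptions were the filter on all 10 arrays (15 of 16) and the milk protein mean within slides (38 of 60). The count of 60 called (57 higher, 3 lower, 5 calls in lists) depended on the processing; the cause was not tested. It was 5 (5 higher, 0 lower, 1 in lists) with normexp and likewise with the series matrix, 26 (24 higher, 3 in lists) with quantile normalisation, 14 (14, 0 and 0) with no filter, 5 (5, 0 and 2) with the filter on all 10 arrays, which also called 8 genes with diet, 376 (259, 117 and 12) with slide as a random block (consensus correlation -0.07), 9 (9, 0 and 0) with brightness as a covariate, 114 (103 and 11) with the milk protein mean as a continuous term, and 5 lower with a variance trend. Class did not vary within a slide, so slide as a random block could not take slide out of the class difference. Leaving out 1 tumour gave 14 to 180 called, 14 to 134 higher, 0 to 46 lower and 0 to 7 in lists. Within slides it was 14 (7, 7 and 3), with high tumours of slide 1 only 333 (328, 5 and 2) and of slide 3 only 18 (18, 0 and 1). With brightness as a covariate Ccl28, Akr1c19 and Agt were called (adjusted p = 0.018, 0.027 and 0.018).

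Signs of some named genes changed; the cause was not tested. With normexp, Trps1 was 0.14, Hspa5 0.034, Esr1 0.012 and Pcna 0.15; with the series matrix Trps1 was 0.13, Hspa5 0.016, Esr1 0.00401 and Pcna 0.14; with quantile normalisation Trps1 was 0.0053, Hspa5 0.019 and Pcna 0.072. With the mean of probes Trps1 was 0.10 and Pcna 0.25, with brightness Esr1 was 0.11, with the continuous mean Stat5a was 0.021 and Pcna 0.16, and with high tumours of slide 3 only Hspa5 was 0.092, Esr1 0.13 and Pcna 0.029. Within slides Ccl28 was -0.28, Akr1c19 -0.13, Thrsp -0.16, Olah -2.37, Lbp -1.01, Slc16a11 1.01, Upp1 1.20, Fdps 0.23, Cxcl12 -1.82, Ndufa4 0.17, Ccl2 0.94, Lamb3 -0.64, Cd14 -1.13, Kit -0.97, Kdr 0.025, Trps1 0.078, Prlr 0.24, Stat5a 1.22, Esr1 0.11, Pgr -0.38, Erbb2 -0.65, Krt14 0.94 and Pcna 2.43. Leaving out 1 tumour, Esr1 was -0.40 to 0.10, Pcna -0.28 to 0.16, Hspa5 -0.10 to 0.11, Krt14 -0.38 to 0.032, Aqp5 -0.15 to 1.88 and Stat5a -0.23 to 0.10.

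Same-numbered WD and CD tumours share only a number: correlations of their deviations were -0.02, 0.06, 0.16, 0.02 and 0.06, and 0 of 5 WD and 0 of 5 CD samples correlated best with their own number. With the replicate block 0 genes were called (0 higher, 0 lower, 0 in lists; lowest adjusted p 0.31; 548 at an unadjusted p under 0.05). Prdm1 was 0.22, Hspa5 0.30, Esr1 0.31 and Krt14 0.15 in that fit.

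The comparison is limited by 10 arrays, by the low class lying on 1 slide, and, for the 19 called genes on no low array well above background, by dim low signals.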

Other observations

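Inside slide 2, the cell cycle genes lay in the order of the milk protein mean, the value that set the classes. Their mean level was -1.42 in WD4, -0.79 in CD3, 0.37 in WD3 and 1.01 in CD5, whose milk protein means were -1.25, -0.29, 0.39 and 0.69. On slide 1 the levels were -0.75 in WD1, 0.77 in WD2 and 0.40 in CD2, and on slide 3 they were -0.12 in WD5, 1.00 in CD1 and -0.28 in CD4, in another order than the milk protein mean of slide 1 (2.79, 3.07 and 3.28). On slide 2 the luminal, basal, prolactin pathway and mast cell lists lay in the same order, as did Aqp5. Other lists, such as the macrophage markers, did not. The order is thus not particular to the cell cycle genes. It was noticed in these values among 29 lists and covers 4 tumours of slide 2, and the order of a list was not tested. Single genes were tested in the fit within slides, which rests mainly on the same 4 tumours. It called the cell cycle members Mcm6 (7.23), E2f1 (5.62) and Cdc20 (4.84) higher (limma adjusted p = 0.039 each). Of all tested genes 0.0402% were called higher in that fit.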
